A study of Homo sapiens with 20 samples.

Results

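Chromatin-associated RNA of unperturbed human embryonic kidney cells was compared here with their messenger RNA libraries, using 5 of the 20 libraries of the series. The study examined silencing of nascent RNA by Dicer-dependent small RNAs, and the wild type (wt) libraries were its controls. Group 1 holds 3 wt mRNA-seq libraries from HEK293T cells that had received doxycycline at 3 µg/ml for 7 days. Group 2 holds 2 wt chrRNA-seq libraries from cells labelled HEK293, for which no doxycycline is stated. HEK293 is a line made from human embryonic kidney cells with adenovirus DNA, and HEK293T is a derivative that also carries the SV40 large T antigen. The labels call the mRNA-seq input polyA RNA, whereas the study's methods describe ribosomal RNA depletion and a stranded total RNA kit. The chrRNA-seq input was RNA from the pelleted chromatin of isolated nuclei, treated with DNase and prepared with a different kit whose strandedness is not stated. Fraction, line label, treatment and kit therefore differ together and cannot be told apart in any contrast below. A further 3 mRNA-seq libraries (HEK293 2B, doxycycline at 3 µg/ml for 7 days) and 2 chrRNA-seq libraries (HEK293, doxycycline for 72 hours) from cells with an inducible short hairpin against Dicer (shDicer) gave the same contrast in separate samples.

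Genes are copied into RNA on chromatin by RNA polymerase. A pre-mRNA stays tethered there while introns are being removed, and most finished mRNAs are then released and exported to the cytoplasm, where they are translated and decay. RNA that is pelleted with chromatin is therefore rich in unfinished transcripts and in long non-coding RNAs (lncRNAs) that stay in the nucleus, while whole-cell mRNA is dominated by stable cytoplasmic messages such as those for ribosomal proteins.

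Each library was quantified by its authors per transcript. The deposited estimated counts were summed per gene through the Ensembl transcript identifiers. The wt mRNA-seq libraries held 10216430 to 13183577 estimated counts and the wt chrRNA-seq libraries 17484067 to 18222946. Of these, 93.69 to 94.83% fell on transcripts with a gene in the GENCODE annotation of GRCh38. A gene whose main transcript is among the unassigned ones has an incomplete value, so a member that goes against its gene list may be such a gene, which was not tested. The mean fragment length implied by the files was 149 to 153 bases in mRNA-seq and about 198 bases in chrRNA-seq. Values are given as CPM (counts scaled to a common library size with TMM factors). TMM sets equal between libraries a weighted mean of gene ratios without the extreme genes. It does not make the median gene equal between the groups, as given below. Differences are given as log2 fold changes of chrRNA-seq over mRNA-seq (edgeR quasi-likelihood test, adjusted by Benjamini and Hochberg). A gene was called when its adjusted p was below 0.005 and its log2 fold change was at least 1 in either direction. No spike-in was used, so these values describe composition and not the amount of RNA in a cell. Less RNA per cell and a smaller share of cells cannot be told apart in bulk libraries.

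The chromatin fraction held many more kinds of RNA than mRNA-seq. Of 28050 genes tested, 15207 (54.2%) were higher in chrRNA-seq and 6608 (23.6%) were higher in mRNA-seq. The filter on low counts let a gene enter through the chrRNA-seq libraries alone, and the direction of such a gene was largely fixed by that. At least 10 counts were held by 14033 to 14547 genes in mRNA-seq and by 30018 and 30325 in chrRNA-seq. These percentages therefore partly reflect the filter. The median log2 fold change of all tested genes was 1.73. With library size alone in place of TMM the median was 3.33, a shift of 1.60, which gave 20289 genes higher in chromatin RNA and 2674 genes higher in mRNA-seq. The sign of a gene between about -1.6 and 0 therefore depends on the scaling, and 4384 genes changed sign. Where a list's median changes sign with the scaling, this is said beside it. Among the 11811 genes that averaged 3 or more on the log2 CPM scale, 2789 were higher in chrRNA-seq and 5614 were higher in mRNA-seq, with a median of -0.86. Among genes covered that well, more were thus higher in mRNA-seq under TMM. Their median lies in the range where the sign depends on the scaling. The 2 groups did not overlap in 93.88% of all genes, which is the background against which single genes were read.

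The number of genes with at least 10 counts showed the same breadth. For lncRNA genes it was 1439 to 1628 in the mRNA-seq libraries and 8578 to 8660 in the chrRNA-seq libraries. Processed pseudogenes, which are reverse-transcribed copies of mRNAs, rose from 115 to 139 up to 2532 to 2601. Protein-coding genes differed less, with 12056 to 12304 against 16048 to 16114. The chrRNA-seq libraries were deeper by count, and the part of depth in these numbers was not tested.

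lncRNA genes held a much larger share of the chromatin libraries. They took 1.63%, 1.63% and 1.86% of the counts in the mRNA-seq libraries and 14.3% and 14.1% in the chrRNA-seq libraries, a ratio of means of 8.31. Protein-coding genes took 83.8% ± 0.68 (SD, n = 3) and 81.5% ± 0.07 (SD, n = 2), a small step although the samples did not overlap. Within protein-coding genes the counts moved between transcript types. Transcripts annotated as protein_coding fell from 73.6% to 53.7% of all counts, and transcripts annotated as retained_intron rose from 4.31% to 16.4%. Several classes of small structured RNA went the other way: misc_RNA genes held 9.33% of mRNA-seq and 0.518% of chrRNA-seq counts. The values were 2.84% and 0.581% for snRNA genes, and 1.48% and 0.0819% for ribozyme genes. The share of snoRNA genes rose instead, from 0.326% to 0.544%. With 3 against 2 samples the smallest two-sided exact permutation p is 0.1, so these shares carry no p below that value.

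Among the tested lncRNA genes, 6485 of 7771 (83.5%) were called higher in chrRNA-seq and 214 (2.75%) higher in mRNA-seq, with a median log2 fold change of 3.37 beside 1.73 for all genes. The same direction held for the 1043 lncRNA genes at or above the same average level, of which 823 were higher in chrRNA-seq and 60 in mRNA-seq (median 2.77). Protein-coding genes split almost evenly under TMM, with 5153 of 15764 higher in chrRNA-seq and 6093 higher in mRNA-seq. Their median was -0.25, or 1.37 with library size alone. Processed pseudogenes had the highest median of the large classes, 6.23, and 1907 of 2182 were higher in chrRNA-seq. Such copies share sequence with their parent mRNAs, and how the authors' quantification split reads between them is uncertain.

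Position relative to protein-coding genes changed the lncRNA values only in degree. The 3171 lncRNA genes that overlap a protein-coding gene on its opposite strand had a median of 3.96, and the 2780 that overlap no protein-coding gene had a median of 3.32. The 668 lncRNA genes that start head to head with a protein-coding gene, a layout typical of shared promoters, had the lowest median at 2.32. Where exons of an lncRNA face exons of a protein-coding gene, reads from both strands matter. Levels were set side by side only where the partner had at least 5 TPM in every wt library. For the 116 such lncRNA genes, of 261 with at least 50% of their exonic bases facing, the median level was 0.62% of the partner's TPM in mRNA-seq and 15.1% in chrRNA-seq. For 509 such genes, of 1284 with less than 50% facing, the values were 0.40% and 15.6%. Since the strandedness of the chrRNA-seq kit is not stated, a gene and its antisense partner cannot be told apart there. The 5081 lncRNA genes with no exon facing a protein-coding exon had a median of 3.43, near that of all lncRNA genes.

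The lncRNAs known for nuclear functions did not form a single block. Of 18 tested, 11 were higher in chrRNA-seq and 6 higher in mRNA-seq, and their median of 1.64 was 0.09 below the median of all genes. NEAT1, the scaffold RNA of paraspeckles (chr11:65422774-65445540), was at 17.3, 17.0 and 23.7 CPM in mRNA-seq and at 351 and 387 CPM in chrRNA-seq, a log2 fold change of 4.26 ± 0.10 (SE; edgeR adjusted p = 2.49e-17). KCNQ1OT1, the imprinted antisense RNA of the KCNQ1 locus, was at 146, 148 and 173 CPM against 1377 and 1311 CPM (log2 fold change 3.11 ± 0.07). FTX, a non-coding gene of the X-inactivation centre, was at 33.5 to 36.3 CPM against 277 and 292 CPM (3.02), and MIAT at 1.12 to 2.55 CPM against 29.8 in both chrRNA-seq libraries (4.17). In each of these 4 genes the groups were well separated.

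MALAT1, an abundant RNA of nuclear speckles, behaved differently from NEAT1, its neighbour on chromosome 11. It was at 687, 770 and 916 CPM in mRNA-seq and at 408 and 417 CPM in chrRNA-seq. Its log2 fold change of -0.94 was not called and became 0.68 with library size alone. FIRRE, an X-linked lncRNA that organises nuclear contacts, was at 70.7 to 73.9 CPM against 9.42 and 10.6 CPM (log2 fold change -2.86 ± 0.09, edgeR adjusted p = 1.09e-15). JPX, another gene of the X-inactivation centre, also fell on chromatin (-2.42), and so did TUG1 (-1.78). With library size alone JPX was at -0.80 and TUG1 at -0.16, neither large enough for a call.

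The lncRNAs known as cytoplasmic or as hosts of snoRNAs lay on the mRNA side. Of 18 tested, none was called higher in chrRNA-seq and 11 were higher in mRNA-seq, with a median of -1.53 (0.09 with library size alone), which is 3.26 below all genes under TMM. NORAD, a cytoplasmic RNA that binds Pumilio proteins (chr20:36045618-36051018), was at 649, 657 and 627 CPM against 44.9 and 54.3 CPM, a log2 fold change of -3.70 ± 0.08 (edgeR adjusted p = 2.23e-17). It shares 50.8% of its 31-base words with other genes, 37.6% with OVCH1-AS1 alone, so its value is less certain. The snoRNA host genes SNHG16 (1069 to 1230 against 155 and 161 CPM), SNHG8 (114 to 117 against 12.5 and 15.4 CPM) and GAS5 (772 to 779 against 140 and 164 CPM, and a log2 fold change of only -0.73 with library size alone) were also lower on chromatin. SNHG12 (-0.14) and SNHG7 (0.02) did not pass the call.

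The lncRNA genes with the largest chromatin excess included matches to ribosomal DNA. Ribosomal RNA is made as one long precursor whose outer and inner spacers are cut away in the nucleolus, so spacer sequence marks precursor rather than mature ribosomes. A search of the annotated transcripts against the RNA45SN2 unit (chr21:8205988-8219302, GRCh38) with a minimum of 60 matching bases at 80% identity found 20 tested genes. All 8 that matched the 5′ external spacer in sense were higher in chrRNA-seq, with a median log2 fold change of 10.7. The largest by level was MIR663AHG (chr20:26167817-26251546), annotated as the host gene of miR-663a, at 36.1, 59.6 and 37.9 CPM in mRNA-seq and 10217 and 10170 CPM in chrRNA-seq (log2 fold change 7.84 ± 0.14). Of its 37 transcripts in the files, 23 hold a spacer stretch, and these carried 98.2 to 99.8% of its counts in mRNA-seq and 99.99% in chrRNA-seq. The 8 sense matches share reads with each other, so they are not independent genes.

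The 2 mature miRNAs named for such hosts, taken from RefSeq with the seed (bases 2 to 8) in capitals, are shown because each is identical to a stretch of the spacer over all 22 bases.
hsa-miR-663a: aGGCGGGGcgccgcgggaccgc
pre-rRNA spacer, chr21:8208037-8208058: aGGCGGGGcgccgcgggaccgc
hsa-miR-663b: gGUGGCCCggccgugccugagg
pre-rRNA spacer, chr21:8208101-8208122: gGTGGCCCggccgtgcctgagg
The miRNA genes that carry them followed the spacer: MIR663A was at 0.48 to 0.70 CPM in mRNA-seq and 750 and 756 CPM in chrRNA-seq, and MIR663B at 0 to 0.98 CPM and 402 and 409 CPM. Genes that match the spacer took 0.00297% of the mRNA-seq counts and 2.63% of the chrRNA-seq counts. They made up 89.9% of all miRNA-gene counts in chrRNA-seq. Without them, the miRNA class held 0.0563% of the chrRNA-seq counts in place of 0.561%, and 0.00319% of mRNA-seq counts. The lncRNA class held 12.1% ± 0.15 (SD, n = 2) in place of 14.2% ± 0.18.

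LINC00273 (chr16:34158585-34160036) is the antisense counterpart in this set: 937 of its bases match the reverse strand of the spacer at 82.07% identity. It had no counts in the mRNA-seq libraries and 658 and 693 CPM in chrRNA-seq, which is at least 1584-fold higher when a floor of 3 counts per library is used. The 4 copies of the 5.8S gene were also higher in chrRNA-seq (log2 fold change 4.36 for each, with the same reads shared among them). A set of 5 annotated genes, 4 of them lncRNAs, lies antisense to the 18S part, and all were lower in chrRNA-seq, with a median of -5.20. Ribosomal RNA removal differed between the kits, and its part in these values was not tested.

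Other leading lncRNA genes on chromatin had no such match. DIP2C-AS1 was at 0.16 to 0.28 CPM in mRNA-seq and 81.9 and 86.8 CPM in chrRNA-seq (log2 fold change 8.44 ± 0.18). HOXA-AS3, antisense within the HOXA cluster (chr7:27129977-27155928), was at 0.51, 1.26 and 1.27 CPM against 105 and 97.2 CPM (6.67 ± 0.15). PPM1F-AS1 (7.01 to 8.92 against 259 and 264 CPM), LINC02972 (1.02 to 1.75 against 64.6 and 65.7 CPM) and RWDD3-DT (1.53 to 2.79 against 57.6 and 58.3 CPM) completed the top of the list. MIR1302-9HG also ranked there, at 0 to 0.42 against 75.8 and 86.3 CPM, but shares 65.7% of its 31-base words with other genes and is uncertain.

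The listed structured RNAs transcribed by RNA polymerase III and listed small nuclear ribonucleoprotein RNAs were strongly depleted from chrRNA-seq, cytoplasmic and nuclear ones alike. Their annotated classes as a whole did not follow the lists. Of 769 tested misc_RNA genes, 645 were higher in chrRNA-seq and 19 in mRNA-seq, beside 54.2% and 23.6% of all genes. Only 36 to 50 misc_RNA genes had at least 10 counts in mRNA-seq, against 914 and 937 in chrRNA-seq. Most were thus tested through chrRNA-seq alone, which largely fixed their direction. For 238 snRNA genes these numbers were 153 and 62, and for 225 snoRNA genes 66 and 48. At a mean log2 CPM of at least 3, they were 8 and 8 of 17 misc_RNA and 0 and 33 of 33 snRNA genes. All 8 tested members of the structured cytoplasmic list were higher in mRNA-seq, with a median log2 fold change of -7.41. RN7SL1, the RNA of the signal recognition particle (chr14:49586580-49586878), was at 82543, 88544 and 99973 CPM in mRNA-seq and at 462 and 464 CPM in chrRNA-seq (-7.61 ± 0.11, edgeR adjusted p = 4.18e-19). It shares 98.1% of its 31-base words with other genes, 72.9% with RN7SL2 alone, which was at -7.21. The Y RNAs RNY1 (-8.97) and RNY3 (-7.85), components of Ro particles, also fell, whereas RNY4 was called at -1.74 from at most 4.72 CPM, a call lost when any of 3 libraries was left out (mRNA-seq 1, and either chrRNA-seq library; -1.21 to -2.03).

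Of 21 tested members of the structured nuclear and nucleolar list, 18 were higher in mRNA-seq and none in chrRNA-seq, with a median of -4.09. RN7SK, which restrains the elongation factor P-TEFb in the nucleus, was at 28367 to 31975 CPM in mRNA-seq and at 620 and 749 CPM in chrRNA-seq (-5.47 ± 0.10). RPPH1, the RNA of RNase P, was at 12602 to 12805 CPM against 41.7 and 44.9 CPM (-8.20 ± 0.09), and RMRP, the RNA of RNase MRP, at 10073 to 11085 CPM against 371 and 380 CPM (-4.80). RN7SK, RPPH1 and SCARNA2 are each annotated a second time at the same place, so their reads may be divided. SCARNA2 was listed at 0, 51.3 and 6.53 CPM in mRNA-seq against 46.4 and 51.1 CPM and was not called (1.34), but was called at 4.05 without mRNA-seq library 2. All these RNAs are under 500 bases, and the fragments were longer in chrRNA-seq, as given above. The part of fragment length or kit in their depletion was not tested. Protein-coding genes whose canonical transcript is under 500 bases had a median of -3.08 (121 genes), against -0.16 for those of 2000 to 4000 bases (5753 genes).

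Messages of the translation and energy machinery were mostly on the mRNA side. Of 83 tested cytosolic ribosomal protein genes, 76 were higher in mRNA-seq and 1 was higher in chrRNA-seq, with a median of -4.09 that lay 5.82 below all genes. RPL41, the shortest of these proteins (chr12:56116590-56117967), was at 2714, 2742 and 2768 CPM in mRNA-seq and 38.6 and 38.7 CPM in chrRNA-seq (-6.15 ± 0.08, edgeR adjusted p = 1.93e-19). RPL7 had the same size of change (3247 to 3310 against 42.7 and 49.7 CPM), and RPS3A was close to it (4086 to 4268 against 66.7 and 70.2 CPM). The member with the opposite call, RPL3L, is a muscle paralogue of RPL3. It had 3 counts in all mRNA-seq libraries together and 6.18 and 6.49 CPM in chrRNA-seq, a count ratio of 44.9 with a 95% interval of 15.3 to 219 that covers counting error only.

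Nuclear-encoded respiratory chain genes fell in the same way, with 71 of 82 higher in mRNA-seq and 5 higher in chrRNA-seq (median -3.38). ATP5ME, a small subunit of ATP synthase, was at 187 to 195 CPM against 2.49 and 3.15 CPM (-6.09). COX7C was at 557 to 600 CPM against 13.3 CPM in both chrRNA-seq libraries (-5.46), and ATP5F1B, the catalytic beta subunit, at 1315 to 1338 CPM against 117 and 125 CPM (-3.45). Of the 5 that rose, 3 (NDUFA4L2, ATP5MGL and UQCRHL) are paralogues of low level, with at most 1.24 CPM on average in mRNA-seq.

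Replication-dependent histone genes, whose mRNAs end in a stem-loop and carry no poly(A) tail, were abundant in mRNA-seq and scarce on chromatin. Of 51 tested, 48 were higher in mRNA-seq and none in chrRNA-seq (median -4.47). H4C3 (chr6:26103933-26104337) was at 827, 903 and 983 CPM against 9.86 and 10.5 CPM (-6.47 ± 0.10), and H1-2 at 1659 to 1762 CPM against 75.8 and 85.1 CPM (-4.40). H2AC18 was listed at 761 to 858 CPM and at 0 in both chrRNA-seq libraries, but all its 31-base words are shared with H2AC19, so the split between these copies is uncertain. The summed level of the list was 16316 to 18833 CPM in the libraries labelled polyA RNA and 816 and 880 CPM in chrRNA-seq.

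Glycolysis, the endoplasmic reticulum and the cytoskeleton gave smaller shifts in the same direction. Of 17 glycolytic genes, 11 were higher in mRNA-seq and none in chrRNA-seq (median -1.53, or 0.09 with library size alone, 3.26 below all genes under TMM), led by LDHB (2626 to 2776 against 93.6 and 94.8 CPM, -4.83) and with GAPDH at -3.51. ENO1, the highest of them, was at 2736 to 2825 CPM against 491 and 541 CPM (-2.43), a call lost with library size alone (-0.81). Of 30 chaperone and translocon genes of the endoplasmic reticulum, 24 were higher in mRNA-seq and 1 in chrRNA-seq (median -2.35). SEC61G, a translocon subunit, had -5.00 and HSP90B1 had -3.73, while SPCS1, a signal peptidase subunit, was just called in the other direction (1.03) and lost the call without mRNA-seq library 2 (0.81), without chrRNA-seq library 2 (0.97) or with DESeq2 (0.87). Of 25 cytoskeletal genes, 21 were higher in mRNA-seq and none in chrRNA-seq (median -2.76). TMSB10, which binds actin monomers, was at 469 to 510 CPM against 5.59 and 5.86 CPM (-6.41). ACTG1, cytoplasmic gamma actin, was at 66.9 to 114 CPM against 162 and 180 CPM and was not called (0.995), though it was without mRNA-seq library 2 (1.25) or chrRNA-seq library 1 (1.06).

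Short-lived mRNAs were also found more on the mRNA side. Of 31 immediate early and short-lived genes, 19 were higher in mRNA-seq and 3 in chrRNA-seq, with a median of -1.54 (0.08 with library size alone), 3.27 below all genes under TMM. FOS, the immediate early transcription factor, was at 26.9, 43.5 and 72.2 CPM against 0.56 and 0.35 CPM (-6.65 ± 0.39), so the groups were apart although the mRNA-seq libraries differed widely among themselves. ID2, an inhibitor of basic helix-loop-helix factors, was at 299 to 348 CPM against 14.9 and 17.8 CPM (-4.32). MCL1, a short-lived survival factor, was at 446 to 499 CPM against 72.2 and 82.1 CPM (-2.60, or -0.99 with library size alone). Its TPM, which is not TMM scaled, was 46.4 and 46.1. FOSL1 (3.55), ZFP36 (3.06) and EGR3 (2.31) were higher in chrRNA-seq, all from a mean below 1 CPM in mRNA-seq.

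Protein-coding genes outside these lists also fell strongly. HMGN3, a nucleosome-binding protein, was at 232 to 239 CPM against 2.41 and 2.74 CPM (-6.51), SF3B6, a subunit of the U2 spliceosomal particle, at 354 to 363 CPM against 4.13 and 5.02 CPM (-6.29), and NXT2, an mRNA export factor, at 76.2 to 92.2 CPM against 1.04 and 1.07 CPM (-6.28). FMC1-LUC7L2 and BOLA2B ranked with them but share 98.3% and 72.6% of their 31-base words with other genes, so their values are uncertain.

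The protein-coding genes with the largest rise on chromatin were at low levels in mRNA-seq, as a ranking by fold change favours. SLFNL1 (chr1:41015589-41023237) had 1 count in the mRNA-seq libraries together and 88.5 and 93.0 CPM in chrRNA-seq, a ratio of 1933 with a 95% counting interval of 347 to 76353. TTN, the giant sarcomere protein titin with 363 exons in its canonical transcript, was at 0.80, 0.98 and 1.27 CPM in mRNA-seq and 366 and 400 CPM in chrRNA-seq (log2 fold change 8.52 ± 0.12, edgeR adjusted p = 4.18e-19). DNHD1, a dynein heavy chain domain protein, was at 1.53 to 2.80 CPM against 88.0 and 101 CPM (5.51).

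SCUBE3, a secreted signalling protein, was at 0.51 to 0.96 CPM against 81.2 and 81.5 CPM (6.74), and FAXDC2, a fatty acid hydroxylase domain protein, at 0.25 to 0.98 CPM against 72.4 and 73.1 CPM (6.77). ERVW-1, the envelope gene of an endogenous retrovirus that encodes syncytin-1, was at 2.93 to 3.98 CPM against 184 and 185 CPM (5.81). MPV17L, LRRC75A and ECHDC2 had log2 fold changes of 5.39 to 6.24. TTN, SLFNL1, SCUBE3, ERVW-1, FAXDC2, LRRC75A and ECHDC2 have annotated genes on their opposite strand, and with the strandedness of the chrRNA-seq kit not stated their reads may be partly those of the partner.

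The most extended genes were mixed. Of 29 tested giant genes, 13 were higher in chrRNA-seq and 6 in mRNA-seq, with a median of 1.42, which is 0.31 below all genes. AUTS2 was at 11.2 to 12.7 CPM against 83.9 and 84.7 CPM (2.83), whereas DMD, the dystrophin gene, was at 34.5 to 34.9 CPM against 10.5 and 10.7 CPM (-1.71) and DIAPH2 at 41.7 to 48.0 CPM against 11.0 and 13.9 CPM (-1.88). With library size alone DMD was at -0.09 and DIAPH2 at -0.26. TENM2 had no counts in mRNA-seq and 0.89 and 0.91 CPM in chrRNA-seq, at least 2.12-fold higher. Over all protein-coding genes, the 54 with a span above 1000000 bases had a median of 1.78, against -0.39 for 4709 genes of 50000 to 200000 bases.

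Class medians of protein-coding genes ranged more widely with base composition than with gene span or exon number. Classes of transcript length also ranged widely, from -3.08 (121 genes up to 500 bases) to 0.08 (1391 genes above 8000 bases). From the lowest to the highest G+C class of the canonical transcript, the median log2 fold change rose in every step from -2.34 (1309 genes at 38% or less) to 1.42 (2485 genes above 60%). At 38% or less, 979 genes were higher in mRNA-seq and 187 in chrRNA-seq, and above 60%, 337 were higher in mRNA-seq and 1377 in chrRNA-seq. lncRNA genes did not share this slope: their medians stayed between 2.78 and 3.58 over the same classes. Genes with more than 32 exons had a median of 0.98 (602 genes), and in the class above 60% G+C, genes with more than 16 exons reached 2.22 (480 genes, 367 higher in chrRNA-seq and 10 in mRNA-seq). At 42% G+C or less, genes with more than 16 exons had a median of -1.67 (862 genes). Level fell along the same classes, with a median log2 CPM of 5.43 at 38% G+C or less and 3.01 above 60%. The kits and fragment lengths differ between the groups. The part of level, kit or fragment length in this relation was not tested.

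Retained introns were the main change within genes. Ensembl annotates as retained_intron those transcripts of a gene that keep intron sequence and are not given a coding frame. In 5752 protein-coding genes with such a transcript and at least 50 counts in every sample, the median share of a gene's counts on them was between 4.0 and 4.02% in the mRNA-seq libraries and 23.2% and 22.5% in the chrRNA-seq libraries. The share was higher in both chrRNA-seq libraries than in all mRNA-seq libraries in 5006 genes (87.0%) and lower in 235 (4.09%). The median difference was 14.3 percentage points, with quartiles of 4.94 and 31.1. With TPM in place of counts the medians were 9.96% and 35.3%, and 80.9% of genes were higher.

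Housekeeping genes whose total level fell on chromatin still shifted to retained introns there. Ribosomal protein genes went from a median share of 3.72% to 50.03% (60 of 68 genes higher without overlap, 5 lower), and respiratory chain genes from 2.24% to 37.3% (46 of 50 higher, 1 lower). Over all genes 87.0% were higher, so these counts are near the background. For SEC61G the retained-intron share rose from 3.05% to 56.7%, for SF3B6 from 0.54% to 45.2%, and for TUBA1B from 0.72% to 27.5%.

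Regulators of splicing that are known to keep introns in the nucleus had high median shares in both fractions, though members varied widely. Their median share rose from 31.6% to 62.1% on chromatin, with 23 of 32 genes higher and 3 lower. Over all genes 87.0% were higher and 4.09% lower, so a rise was less frequent in this list. TRA2B, an SR-like splicing activator, went from 42.9, 46.1 and 46.6% to 94.1 and 93.0%. SRSF5, an SR protein, went from 25.1 to 32.7% up to 81.4 and 81.7%, RBM5, a splicing repressor, from 22.3 to 23.9% up to 76.6 and 78.5%, and OGT, the O-GlcNAc transferase, from 14.4 to 16.02% up to 61.9 and 65.3%. CCNL1 was near 92% in both fractions, and TAF1D near 68%. Others lay below the medians of all genes (4.11% and 22.9%) in both fractions. Among them were SRSF1 (0.11% and 11.7%), TARDBP (0.68% and 5.30%) and SRSF7 (2.12% and 5.92%). The 3 that fell were SRSF2 (33.6% to 1.98%), CLK3 (55.9% to 36.6%) and SON (7.00% to 6.29%).

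Single transcripts were tested as well, across 90362 transcripts. Of these, 7397 (8.19%) were higher in chrRNA-seq and 13703 (15.2%) higher in mRNA-seq. The first count rests on both chrRNA-seq libraries: without library 1 it was 799 and without library 2 it was 873, each time with a single chrRNA-seq library left. By type, 1832 of 17391 retained_intron transcripts of protein-coding genes were higher in chrRNA-seq and 805 in mRNA-seq (median 1.77), whereas 2066 of 39672 protein_coding transcripts were higher in chrRNA-seq and 10744 in mRNA-seq (median -0.38). In 1479 genes a retained_intron transcript was higher in chrRNA-seq. In 724 of these a protein_coding transcript of the same gene was higher in mRNA-seq, and in 282 one was higher in chrRNA-seq. The same share over all genes was not counted, so 724 is not read as particular to these genes.

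The 8 retained_intron transcripts with the largest fold change had no counts in mRNA-seq. HNRNPU-217, from the gene of a nuclear matrix protein that binds pre-mRNA, had 0 CPM in the mRNA-seq libraries and 56.9 and 67.9 CPM in chrRNA-seq, at least 139-fold higher with a floor of 3 counts, while the gene as a whole was lower on chromatin (-1.66). The same floor gave at least 60.3-fold for DNAH1-204 and at least 57.7-fold for IPO4-217, from an axonemal dynein and an importin gene. It gave at least 52.6-fold for PHYKPL-211, at least 50.6-fold for RPS6KL1-211, and at least 46.2-fold and 42.9-fold for FAXDC2-215 and FAXDC2-202. Of these 8, only HNRNPU-217 kept its call when either chrRNA-seq library was left out. For the others the edgeR adjusted p then lay between 0.00662, for the log2 fold change of DNAH1-204 without library 2, and 0.0123, for the log2 fold change of FAXDC2-202 without library 1. In the shDicer libraries 4 of the 8 were called, HNRNPU-217, DNAH1-204 and FAXDC2-215 among them.

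The ends of introns that these transcripts keep are shown to give the annotated sequence that sets them apart from the spliced message. The counts were assigned to whole transcripts, and reads over these introns were not examined. Each line gives 30 bases read from GRCh38 on the strand of the gene, with intron bases in capitals and exon bases in lower case.
HNRNPU donor, chr1:244862441-244862470 (-): cttgatacttGTAAGTGAAGCTGTTTCTCC
HNRNPU acceptor, chr1:244860465-244860494 (-): AGTATTTGATATAATTACAGataattgtga
DNAH1 donor, chr3:52388600-52388629 (+): agctggcaagGTGCGCACCCTCCTCCTGCA
DNAH1 acceptor, chr3:52388786-52388815 (+): CCACGGGGCTGCCCCTCCAGctcatcaacg
IPO4 donor, chr14:24188532-24188561 (-): cgacccccagGTGAGACCCCTGACTCTCCC
IPO4 acceptor, chr14:24188414-24188443 (-): TGCTTGCTTCCTCGTCCTAGatccgccagt
PHYKPL donor, chr5:178232472-178232501 (-): ggctcatcagGTACCCGGGCGGGGGGCGGG
PHYKPL acceptor, chr5:178231820-178231849 (-): GTCCCCATGGGACGGGGCAGccaccttttc
FAXDC2 donor, chr5:154821240-154821269 (-): accatctcaaGTAAGGACCTTCTCCCCACA
FAXDC2 acceptor, chr5:154820463-154820492 (-): TGCCGTCCTCTCTCTTCTAGgttcaaccag
All of them begin with GT and end with AG. The HNRNPU intron has 1986 bases and 35.1% G+C, those of DNAH1, IPO4 and PHYKPL have 196, 128 and 662 bases with 74.0, 65.6 and 71.5% G+C, and that of FAXDC2 has 787 bases and 47.8% G+C. RPS6KL1-211 keeps 4 annotated introns, which are not shown.

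Introns kept by chromatin-enriched transcripts were short and rich in G+C. In the 786 called transcripts that hold a complete intron of a protein_coding transcript, the 1864 introns had a median length of 434 bases and a median G+C content of 56.2%. The 121067 other introns of the same set of genes had 1758 bases and 44.2%. The 6861 introns in retained_intron transcripts that were not called had 262 bases and 55.9%, so shortness and G+C were not particular to the chromatin-enriched ones. The 406 introns in transcripts higher in mRNA-seq had 313.5 bases and a lower G+C content of 36.7%. The first and last bases were GT and AG in 97.8 to 98.5% of introns in every class.

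Mitochondrial RNA was not higher in mRNA-seq by raw share. The mitochondrial genome took 0.170, 0.183 and 0.188% of the mRNA-seq counts and 0.454 and 0.489% of the chrRNA-seq counts. After TMM scaling, 6 of 13 mitochondrially encoded mRNAs were nonetheless higher in mRNA-seq and 1 in chrRNA-seq, with a median of -0.85, which became positive with library size alone. The genes differed from each other under either scaling. MT-ND5, a subunit of complex I, was at 78.4 to 86.1 CPM against 509 and 527 CPM (2.66 ± 0.06), MT-CO1 at 768 to 803 against 697 and 791 CPM (-0.08, not called), and MT-ATP8 at 32.9 to 36.6 against 8.05 and 8.89 CPM (-2.05, or -0.44 with library size alone). MT-RNR2, the large mitochondrial rRNA, was at 33.1, 37.0 and 76.2 CPM against 7.52 and 11.0 CPM (-2.38, or -0.77 with library size alone).

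As a list, markers of the line had counts in both fractions, but not every member was clearly present in mRNA-seq. Of 10 markers of HEK293 cells, 5 were higher in mRNA-seq and 1 in chrRNA-seq, with a summed level of 845 to 983 CPM in mRNA-seq and 354 and 391 CPM in chrRNA-seq. VIM, vimentin, was at 592 to 709 CPM against 256 and 286 CPM (-1.23, and 0.39 with library size alone). PAX2, a kidney transcription factor, was at 0.13 to 0.42 CPM against 5.20 and 5.62 CPM (4.23). It had only 1, 3 and 2 counts in the mRNA-seq libraries, no more than the floor of 3 counts. Of 12 markers of other cell types, 6 were too low to be tested (CD3E, ALB, APOA1, INS, MYH7 and KRT5). The other 6 summed to 3.19 to 4.30 CPM in mRNA-seq and to 20.9 and 23.3 CPM in chrRNA-seq. COL1A1 was the highest of them, at 8.60 and 9.92 CPM in chrRNA-seq, which is above PAX2. Of the 6, 4 were higher in chrRNA-seq, beside 54.2% of all genes.

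Zinc finger genes of chromosome 19, a large cluster of repressors, split evenly. Of 234 tested, 61 were higher in chrRNA-seq and 70 in mRNA-seq, with a median of -0.20 (1.41 with library size alone), 1.93 below all genes under TMM. ZNF146 was at 486 to 510 CPM against 20.4 and 20.6 CPM (-4.61), and ZNF671 had no counts in mRNA-seq and 3.34 and 3.57 CPM in chrRNA-seq, at least 8.10-fold higher. Their retained-intron share rose from 5.33% to 27.3%, with 54 of 63 genes higher and none lower, beside 87.0% higher over all genes.

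The contrast was found again in the shDicer libraries, which share no sample with the wt ones. Of 30132 genes tested there, 15839 (52.6%) were higher in chrRNA-seq and 7303 (24.2%) in mRNA-seq, with a median log2 fold change of 1.70. Of the wt genes higher in chrRNA-seq and tested in both, 13363 of 14848 (90.0%) were also called higher in shDicer, and 52 were called in the opposite direction. Of those higher in mRNA-seq, 6117 of 6522 (93.8%) were also called there, and 13 in the opposite direction. Seen from the other side, 84.4% of the shDicer genes called higher in chrRNA-seq and 83.8% of those called higher in mRNA-seq carried the same call in wt. The retained-intron share was higher in the chrRNA-seq libraries in 89.3% of genes. Kit and fraction differ in shDicer as they do in wt.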

How the data were processed

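mRNA-seq and chrRNA-seq were made from wt and shDicer cells, and the 5 wt libraries form the comparison. Per the study's methods, the authors quantified reads with kallisto on an index of Ensembl release 89 cDNA and ncRNA with a stranded setting, and deposited estimated counts and TPM per transcript. Estimated counts were summed per gene through GENCODE v44 (GRCh38), rounded to whole numbers and fitted with edgeR 4.0.16 (R 4.3.3, filterByExpr, TMM, quasi-likelihood test). DESeq2 1.42.0 was an alternative. Of 217082 transcripts, 193697 (89.23%) matched a gene. TPM served only for levels between genes and as an alternative unit.

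Replicates of a group differed by more than sampling noise (chi-square per degree of freedom 2.56 to 4.62), but nothing states separate cultures, so p-values measure the spread between libraries. The test was tried on simulated data with 200 changed genes for this contrast: all 200 were called, and 0 of 25237 unchanged genes. There, all genes had the same dispersion, and the log2 changes were balanced, raised or lowered by 2. The groups had no shift in composition like that of the real libraries, so the simulation does not test the scaling. Intervals are exact and cover counting error only.

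Genes named in the text were, by rule, the 10 protein-coding and 8 lncRNA genes with the largest change in each direction among called, non-overlapping genes of mean log2 CPM of at least 5, the 8 retained_intron transcripts with the largest fold change, and for each list the member with the highest level and those with the largest and smallest fold change; other list members were named as examples after their values were seen. Members and lists were chosen with earlier results of these data known, and the difference between the wt and shDicer contrasts was tested after the data had been seen. Matches to ribosomal DNA were found with BLAST+ 2.17.0. Shared sequence was measured as 31-base words. Mature miRNAs are from RefSeq. Some genes and transcripts that the rule names are not reported here.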

Additional observations from a re-analysis of the deposited data

Results flagged for a closer look

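A fit of 10 libraries tested whether the contrast of chrRNA-seq over mRNA-seq differed between wt and shDicer cells. It called 831 of 31106 genes, and 11 of the 81 named genes were among them. The values below are the wt log2 fold change minus the shDicer one, by edgeR with the same thresholds. The mRNA-seq groups also differ in line label (HEK293T and HEK293 2B), and doxycycline is stated for the shDicer but not the wt chrRNA-seq libraries, so these cannot be told apart from Dicer.

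Several genes that were nearly silent in wt mRNA-seq were present in shDicer mRNA-seq, while their shDicer chromatin level lay within the same order as in wt. For FAXDC2 the difference was 3.11, with 5.79 to 7.65 CPM in shDicer mRNA-seq and 78.7 and 89.03 CPM in shDicer chrRNA-seq. ECHDC2 (3.28) stood at 11.9 to 15.8 CPM and 85.2 and 92.5 CPM there, LRRC75A (2.54) at 5.97 to 6.39 CPM and 71.4 and 80.3 CPM, and LINC02972 (2.13) at 5.23 CPM or more and 63.3 and 66.3 CPM. SCUBE3 (2.25) stood at 1.93 to 2.28 CPM in shDicer mRNA-seq and 43.9 and 45.9 CPM in shDicer chrRNA-seq, and HOXA-AS3 (1.97) at 2.19 to 3.24 CPM and 60.8 and 72.2 CPM. ZNF671 had the highest value, 7.76, with no counts in wt mRNA-seq and 5.55 to 5.97 CPM in shDicer mRNA-seq, and with 3.34 and 3.57 CPM in wt against 11.5 and 13.8 CPM in shDicer chrRNA-seq, so the fitted size rests on a group at 0.

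FIRRE (-2.44) stood at 5.91 to 6.84 CPM in shDicer mRNA-seq, against 70.7 to 73.9 CPM in wt, and its contrast was not called in shDicer cells (-0.50). NEAT1 (-1.50) was higher in shDicer on both sides, at 65.8 to 83.1 CPM in mRNA-seq (17.0 to 23.7 CPM in wt) and 3529 and 3999 CPM in chrRNA-seq (351 and 387 CPM in wt). ENO2 differed by 1.44, with a contrast of 0.71 in wt and -0.82 in shDicer. VIM differed by 1.55, with 624 to 790 CPM in shDicer mRNA-seq and 77.2 and 110 CPM in shDicer chrRNA-seq.

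Counts on transcripts without a gene in the annotation entered no comparison. They made up 5.31% of the mRNA-seq and 6.24% of the chrRNA-seq counts over 23385 transcripts, of which 75 had at least 1000 counts in every mRNA-seq library.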

How the results depend on the processing

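Of the 81 named genes, 73 were called, and over 12 alternatives 895 values kept direction and side of the threshold, 20 lost the call, 15 gained it and 5 reversed. The reversals were DDX17 (0.44), VIM (0.39), MT-CO1 (1.53) and MT-RNR1 (1.08) with library size alone, and MT-CO1 with protein_coding transcripts only (1.19). Of genes higher in chromatin RNA there were 6116, and of genes higher in mRNA-seq 4115, with protein_coding transcripts only (14949 genes tested, the others having none). With library size alone 2674 were higher in mRNA-seq, and with a log2 fold change of at least 2, 4046. Among genes averaging 3 or more on the log2 CPM scale, a restriction chosen after seeing the data, 2789 were higher in chrRNA-seq. Transcript counts moved most. There were 41860 transcripts higher in chromatin RNA and 8661 transcripts higher in mRNA-seq with library size alone, and 14864 of the former among transcripts with 5 CPM in 2 samples. Leaving out 1 library gave 11298 to 15056 genes and 799 to 6055 transcripts toward chromatin, and 6372 to 6788 genes and 9567 to 13207 transcripts toward mRNA-seq.

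Replicate numbers are shared between groups, but same-numbered libraries did not deviate together (correlations between -0.017 and 0.017), so they do not pair the samples. With the replicate number as a block, there were 85 transcripts higher in chromatin RNA, 3272 transcripts higher in mRNA-seq, 11953 genes higher in chromatin RNA and 6476 genes higher in mRNA-seq, and all 8 named transcripts lost their call, while the 81 named genes kept direction and side of the threshold. A lone chrRNA-seq library was assumed to vary like the others.

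The lncRNA share was 13.3% in chrRNA-seq with unassigned transcripts kept, and 1.86% in mRNA-seq library 3 alone. With TPM, the retained-intron medians were 35.3% and 9.96%. The step in median between the lowest and highest G+C class was 3.76 in wt and 2.97 in shDicer, also added after seeing the data.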
